A study of Mus musculus with 6 samples.

Results

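The lysosome and V-ATPase genes described here are the genes of the table whose symbol begins with Atp6v or Atp6ap, those named Cts with 1 further letter (the cathepsins), and 17 named lysosomal genes: *Lamp1*, *Lamp2*, *Cd63*, *Scarb2*, *Npc1* and *Mcoln1* of the membrane, the hydrolases and cofactors *Hexa*, *Gaa*, *Glb1*, *Gusb*, *Neu1*, *Lipa*, *Asah1*, *Psap* and *Npc2*, and the transcription factors *Tfeb* and *Tfe3*. The rule found 53 members among 16640 genes. RNA was sequenced from MIN6 cells, a mouse insulinoma line widely used as a β-cell model. Control cells carried dCas9 and an sgRNA with no target. *Thada*-activated cells carried dCas9-VP64 and an sgRNA for *Thada* with the MS2-P65-HSF1 activator of the SAM system, which raises transcription of an endogenous gene. Both lines were infected with lentivirus. The study calls the *Thada*-activated line stable and describes antibiotic selection for it, describes none for the control cells, and does not say whether either line was cloned. Each condition had 3 libraries, numbered 1 to 3. The study describes its cell experiments in general as repeated independently 3 times or more, but no source names the 3 libraries of a condition as separate cultures, so p-values measure the spread between these libraries, which may be technical. Library totals ran from 17166511 to 17727004 estimated counts. The members together held 1.47%, 1.51% and 1.42% of the counts in control replicates 1, 2 and 3, and 1.47%, 1.46% and 1.40% in the *Thada*-activated ones.

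Lysosomes break down material delivered by endocytosis and autophagy, and in β-cells they also take up insulin granules that are not secreted. Their acid interior is made by the V-ATPase, a rotary proton pump. Its V1 sector in the cytosol hydrolyses ATP, and its V0 sector in the membrane carries the protons. The same pump acidifies insulin granules, where low pH favours the processing of proinsulin. Some subunits are encoded by more than 1 gene, and the a subunit of V0 helps to direct the pump to a given membrane.

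The target of the activation, *Thada*, was read first as a check of the labels. It had 27.7, 29.0 and 16.96 CPM (a gene's counts scaled by the total of its library) in control replicates 1 to 3, and 57.4, 56.2 and 50.2 CPM in the *Thada*-activated libraries. Every *Thada*-activated library was above every control library, and *Thada* was called with the replicate number as a block (log2 fold change 1.15, adjusted p = 0.00041). Without the block it was not called (log2 fold change 1.13, adjusted p = 1). The cell type was read from marker genes. *Ins2*, which encodes insulin, took from 5.65% to 10.2% of a library. Of 10 β-cell markers, 9 passed the filter on low counts described below. The glucose transporter gene *Slc2a2* had at most 0.523 CPM in any library, although it marks mouse β-cells. Markers of macrophages and other leukocytes, of which 5 of 8 were in the table, summed to at most 1.69 CPM in a library. *Adgre1*, *Itgam* and *Lyz2* of that list were each at or under 3 counts (about 0.17 CPM) in every library. Such cells are rich in cathepsins, and *Ctss*, a cathepsin of leukocytes, had at most 1 count in any library. The table holds transcripts and says nothing of proton pumping or of enzyme activity.

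Transcript levels are compared between genes as FPKM, the authors' value per transcript length. *Cd63*, a tetraspanin of late endosomes and exosomes, had the highest mean (940 ± 180 FPKM; SD, n = 6). *Atp6v0c*, the proteolipid of the V0 rotor ring, followed with 637 ± 98.9 FPKM. *Psap*, the precursor of the saposins that help hydrolases to reach sphingolipids, had 610 ± 81.8 FPKM, and the accessory subunit gene *Atp6ap1* 550 ± 65.2 FPKM. These neighbours in the order overlapped in their ranges over libraries, and in replicate 3 the order differed: *Psap*, at 726 and 701 FPKM in control and *Thada*-activated cells, was above *Atp6v0c* (537 and 486) in both and above *Cd63* (671 and 770) in control. Of the 53 members, 25 had a mean over 100 FPKM, 16 between 10 and 100, 2 between 1 and 10 (*Tfeb* and *Ctsh*) and 10 under 1. Among cathepsins the order of the means was *Ctsb* (443 ± 92.3 FPKM), *Ctsd* (358 ± 16.6), *Ctsz* (254 ± 32.3) and *Ctsl* (225 ± 12.5), which encode lysosomal proteases. In *Thada*-activated replicate 3 *Ctsl* (216.6 FPKM) was level with *Ctsz* (215.8). Of the factors that drive lysosomal genes, *Tfe3* had 25.9 ± 1.69 FPKM and *Tfeb* 5.56 ± 0.504.

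Subunits with more than 1 gene mostly had a single main form. For subunit B of V1, *Atp6v1b2* gave at least 99.88% of the FPKM of the pair in every library. *Atp6v1b1*, the form of kidney intercalated cells, was at 0 in all replicate 1 and 2 libraries. It had 0.113 and 0.29 CPM in the replicate 3 libraries of control and *Thada*-activated cells. Subunit C came almost wholly from *Atp6v1c1*, at least 98.86% of the FPKM of its pair. For subunit E the share of *Atp6v1e2* beside *Atp6v1e1* was at most 0.0388%. For the a subunit, *Atp6v0a1*, known from neurons and neuroendocrine cells, gave from 77.6% to 84.1% of the summed FPKM of the 4 genes. *Atp6v0a2*, known from the Golgi and endosomes, gave from 10.4% to 11.2%. The third gene, *Tcirg1*, encodes a3, described on insulin granules and in osteoclasts, and falls outside the naming rule. It gave 5.35% and 5.96% in control replicates 1 and 2, 5.50% and 5.54% in the *Thada*-activated ones, and 11.3% and 11.8% in the replicate 3 libraries. *Atp6v0a4*, the kidney form, was at 1 count or none in every library. Subunit G of V1 came mainly from *Atp6v1g1*, the general form, and less from *Atp6v1g2*, the neuronal form, which gave from 10.9% to 12.8% of the pair in replicates 1 and 2 and 3.07% and 4.47% in replicate 3. Subunit e of V0 had 2 well-expressed genes, *Atp6v0e* with 60.1% to 62.9% of the pair and *Atp6v0e2* with 37.1% to 39.9%.

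Counts were tested after a filter on low counts, which 12516 genes and 44 members passed. The other 9 members were *Atp6v1b1*, *Atp6v1c2*, *Atp6v1e2*, *Atp6v1fnb*, *Atp6v0a4*, *Atp6ap1l*, *Ctsk*, *Ctss* and *Ctsw*. *Atp6v1fnb* is named as the neighbour of *Atp6v1f* and is counted with V1 by its symbol alone. The highest of them in any library was *Atp6v1c2* at 1.16 CPM, and 5 of the 9 were at or under 3 counts in every library. The quasi-likelihood test of edgeR was used, and a call needed both a fold change over 1.5 and a p under 0.05 after Benjamini-Hochberg adjustment over all tested genes.

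The first comparison asked whether activation of *Thada* came with other levels of these transcripts. No member was called, and the differences were small. Without a block 0 of 44 members passed, against 0% of all tested genes, and 0 members had an unadjusted p under 0.05, against 0.807% of genes. The Wald test of DESeq2 and limma on FPKM also called 0 members. With the replicate number as a block, again 0 of 44 passed, against 0.152% of genes, and 3 members had an unadjusted p under 0.05 (6.82%), against 10.4% of genes. The median log2 fold change of the members was −0.03, beside 0.00 for all tested genes. The blocked 95% intervals lay within a fold of 1.5 in either direction for 43 of the 44 members, against 86.6% of all tested genes. The exception was *Ctsc*, at under 1 CPM in each library. Without the block 30 of the 44 did so (68.2%), against 50.3% of all tested genes.

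By role, the blocked log2 fold changes lay between −0.08 and 0.12 for the 9 tested V1 genes, between −0.08 and 0.12 for the 7 of V0, between −0.17 and 0.21 for the 9 cathepsins, between −0.19 and 0.00 for the 6 membrane proteins, and between −0.11 and 0.04 for the 9 hydrolases and cofactors. The member with the lowest blocked p was *Npc1*, which moves cholesterol out of lysosomes. It had 69.1, 71.8 and 67.3 CPM in control replicates 1 to 3 and 62.6, 68.3 and 55.6 CPM in the *Thada*-activated ones. Each *Thada*-activated library was below the control library of the same number, yet the conditions overlapped (blocked log2 fold change −0.19, 95% interval −0.34 to −0.03, unadjusted p = 0.021, adjusted p = 0.379). *Ctso*, a lysosomal cysteine protease, had 28.9, 34.8 and 77.2 CPM in control and 34.4, 34.6 and 104 CPM in *Thada*-activated replicates 1 to 3. Its conditions overlapped, and the replicate 3 library was by far the highest in both (blocked log2 fold change 0.21, 95% interval 0.04 to 0.39, unadjusted p = 0.0216, adjusted p = 0.38). *Atp6ap1*, an accessory subunit needed for assembly of the pump, had 1207, 1275 and 1014 CPM in control and 1146, 1154 and 929 CPM in *Thada*-activated cells. It was lower in all 3 pairs (blocked log2 fold change −0.14, 95% interval −0.27 to −0.01, unadjusted p = 0.0383, adjusted p = 0.447).

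The libraries of the conditions did not overlap for 2 of the 44 tested members (4.55%), against 5.43% of all tested genes. These were *Atp6v0e* and *Atp6v0e2*, which encode the small e subunit of V0, chosen for mention after their values were seen. *Atp6v0e* had 165, 170 and 178 CPM in control and 188, 180 and 198 CPM in *Thada*-activated replicates 1 to 3, and *Atp6v0e2* had 288, 284 and 275 CPM and then 291, 295 and 302 CPM. The *Thada*-activated libraries were the higher ones for both genes. Any gene whose conditions do not overlap gives p = 0.1 in an exact permutation test, the smallest that 3 against 3 libraries can give. That p therefore adds nothing to the separation itself. The blocked log2 fold changes of *Atp6v0e* and *Atp6v0e2* were 0.12 and 0.04, with adjusted p = 0.534 and 0.83.

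The general lysosomal genes also differed little. *Lamp1* and *Lamp2*, the most abundant glycoproteins of the lysosomal membrane, had blocked log2 fold changes of −0.10 (95% interval −0.24 to 0.04) and −0.03 (−0.16 to 0.10). Those of the proteases were −0.06 for *Ctsb*, −0.07 for *Ctsd*, 0.01 for *Ctsl* and 0.05 for *Ctsz*. *Tfeb* had 11.6, 12.4 and 11.6 CPM in control and 11.8, 13.8 and 10.8 CPM in *Thada*-activated cells, and *Tfe3* had 74.8, 78.5 and 89.2 CPM and then 75.2, 79.1 and 77.7 CPM. Neither factor separated the conditions, and their blocked 95% intervals ran from −0.23 to 0.24 and from −0.24 to 0.07.

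**Figure D1:**
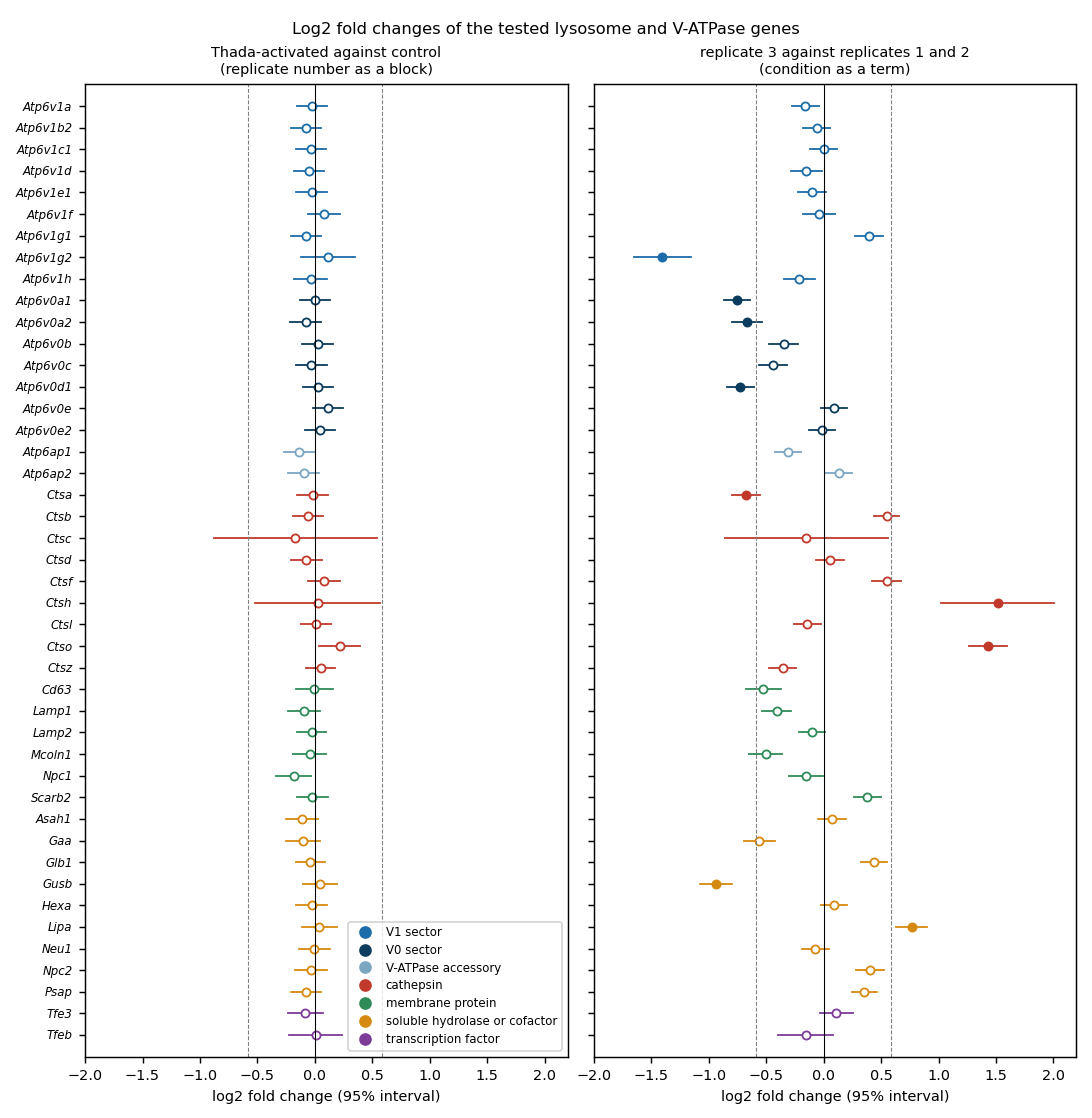
Log2 fold change (horizontal axis) of each of the 44 tested members, with its 95% interval as a line, for *Thada*-activated against control cells with the replicate number as a block (left) and for replicate 3 against replicates 1 and 2 with condition as a term (right). Colours give the role, filled points were called, and dashed lines mark a fold of 1.5; no point is filled on the left and 9 are on the right.

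Replicate 3 stood apart from replicates 1 and 2 in both conditions, across the transcriptome and among these genes. The median member differed by 0.07 (log2) between control replicates 1 and 2 and by 0.33 between control replicate 3 and the mean of those; the values in *Thada*-activated cells were 0.05 and 0.33. Over all tested genes they were 0.09 and 0.41 in control cells and 0.07 and 0.37 in *Thada*-activated cells. Both replicate 3 libraries lay outside the range of the other 4 libraries for 32 of the 44 members (72.7%), against 72.1% of all tested genes. The difference was noticed in these same libraries, so the calls below describe these libraries and no treatment. No label says what set the replicates apart.

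In replicate 3 against replicates 1 and 2, 9 of the 44 tested members were called (20.5%), against 31.1% of all tested genes. Of the 44, 3 were called higher and 6 lower. Of the 3893 called genes of the table, 1970 were higher (15.7% of all tested) and 1923 lower (15.4%). By the adjusted p alone 29 members differed (65.9%), against 68.6% of genes. Of the 44, 18 were lower and 11 higher at that p. Of the 8592 genes of the table that passed it, 4302 were lower (34.4% of all tested) and 4290 higher (34.3%). The median log2 fold change was −0.10 over the members and 0.00 over all tested genes, and the median absolute change was 0.35 and 0.38. The called share of the members was thus not above that of the table.

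The 2 sectors of the pump were read separately. Summed over its 8 genes, V0 had 2172, 2166 and 1656 CPM in control replicates 1 to 3 and 2231, 2222 and 1691 CPM in *Thada*-activated ones. The 13 genes of V1 summed to 1706, 1758 and 1673 CPM and to 1759, 1689 and 1639 CPM. Replicate 3 was the lowest library for V0 in each condition, by a wide margin, and for V1 by a margin like that between replicates 1 and 2. The median log2 fold change in replicate 3 was −0.44 over the 7 tested V0 genes and −0.10 over the 9 of V1, with 5 of 7 and 4 of 9 lower at the adjusted p. With a trend in GC content and transcript length removed, the medians were −0.53 and −0.20, and 5 of 7 and 7 of 9 were lower. Of all tested genes 34.4% were lower, and 34.5% with that trend removed. Sums and medians were not tested.

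*Atp6v0a1* (gene 11975, chr11:101009422-101063719, GRCm38) had 450 and 447 CPM in control replicates 1 and 2 and 272 CPM in replicate 3, and 463, 459 and 270 CPM in the *Thada*-activated libraries. Both replicate 3 libraries were far below the other 4, which lay close together. It fell by 0.75 on the log2 scale (SE 0.05, adjusted p = 2.52e-08). *Atp6v0d1* (gene 11972, chr8:105524461-105566064), whose product links the rotor ring of V0 to the stalk of V1, had 193, 202 and 121 CPM in control and 206, 204 and 124 CPM in *Thada*-activated cells. It too was low in both replicate 3 libraries only, and fell by 0.72 (SE 0.06, adjusted p = 4.59e-08). *Atp6v0a2* (gene 21871, chr5:124629052-124724455) had 80.6, 81.8 and 50.8 CPM and then 77.4, 77.5 and 49.7 CPM. Its fall was close to that of *Atp6v0a1* (log2 fold change −0.67, SE 0.06, adjusted p = 2.23e-07), so both of these forms of subunit a were lower. With that trend removed, its fold was under 1.5 (−0.51). *Tcirg1* went the other way, with 18.8, 21.1 and 25.9 CPM in control and 19.97, 19.9 and 27.2 CPM in *Thada*-activated cells (log2 fold change 0.41, adjusted p = 0.000415, a fold under 1.5). The ring genes *Atp6v0c* and *Atp6v0b* had log2 fold changes of −0.44 and −0.35 (adjusted p = 8.49e-06 and 9.91e-05). Processed copies of *Atp6v0c* exist in the genome, so its counts may include reads from them. The e subunit genes did not pass, with log2 fold changes of 0.09 (*Atp6v0e*) and −0.01 (*Atp6v0e2*).

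In V1, *Atp6v1g2* (gene 66237, chr17:35234931-35238767) had the largest change of the V-ATPase genes tested. It had 30.9, 27.0 and 9.04 CPM in control and 28.5, 29.6 and 13.1 CPM in *Thada*-activated cells. The replicate 3 libraries were the lowest in both conditions (log2 fold change −1.40, SE 0.12, adjusted p = 1.15e-07). Its span overlaps that of *Nfkbil1*, and the counting is not stated to use strand. The general form *Atp6v1g1* was higher in replicate 3, with 157, 154 and 206 CPM in control and 158, 143 and 198 CPM in *Thada*-activated cells (log2 fold change 0.39, adjusted p = 2.68e-05). The catalytic subunit gene *Atp6v1a*, *Atp6v1d* of the central stalk and the regulatory *Atp6v1h* were lower by small amounts, with log2 fold changes of −0.16, −0.15 and −0.21 (adjusted p = 0.0197, 0.0419 and 0.00773). *Atp6v1b2*, *Atp6v1c1*, *Atp6v1e1* and *Atp6v1f* did not pass, with log2 fold changes from −0.10 to 0.00. Of the accessory genes, *Atp6ap1* had a log2 fold change of −0.31 (adjusted p = 0.000133), and *Atp6ap2*, which encodes the (pro)renin receptor, 0.13 (adjusted p = 0.047; −0.03 and 0.609 with the GC and length trend removed). *Atp6ap2* had 708, 767 and 785 CPM in control and 698, 673 and 779 CPM in *Thada*-activated cells.

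**Figure D2:**
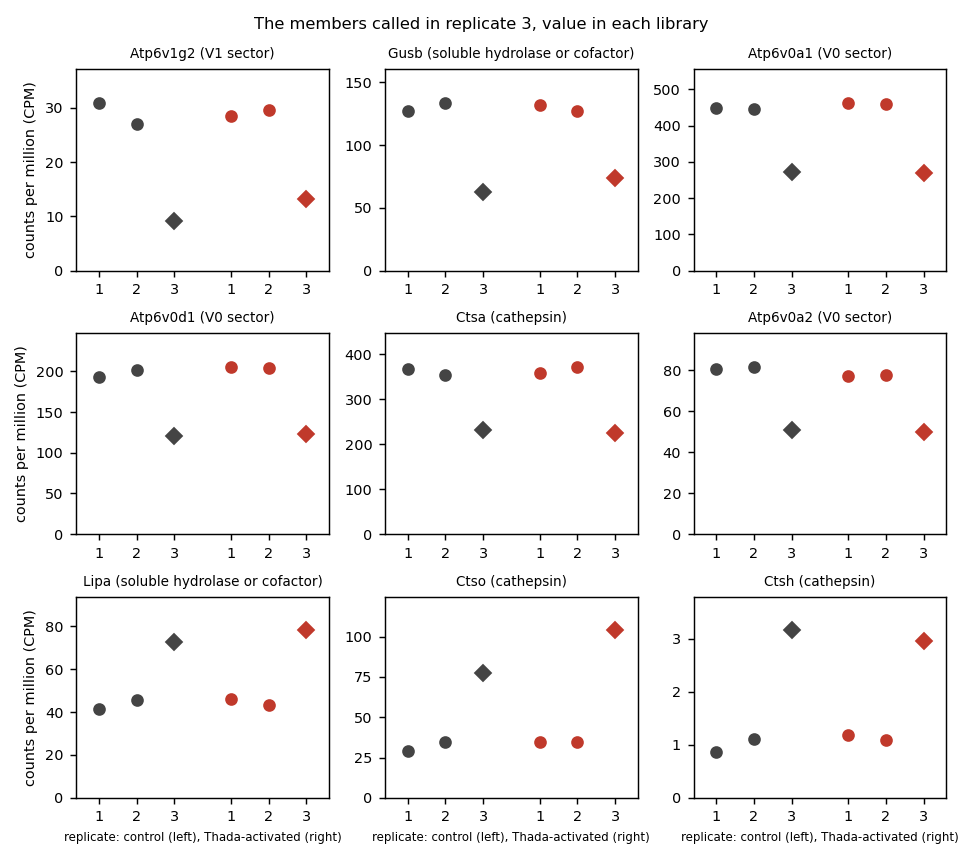
CPM (vertical axes, from 0) of the 9 members called in replicate 3, in each of the 6 libraries; grey points are control and red points *Thada*-activated libraries, circles are replicates 1 and 2 and diamonds replicate 3. In every panel both diamonds lie outside the range of the 4 circles, as they do for 72.1% of all tested genes.

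Cathepsin genes went in both directions. Of 9 tested, 4 were higher and 3 lower at the adjusted p (77.8% in all, against 68.6% of all tested genes). The table as a whole had 34.3% higher and 34.4% lower. The median log2 fold change of the cathepsins was 0.05. *Ctso* (gene 229445, chr3:81932601-81956725) rose in replicate 3 to 77.2 and 104 CPM from the 28.9 to 34.8 CPM of the other 4 libraries (log2 fold change 1.43, SE 0.08, adjusted p = 2.09e-09). *Ctsh* (gene 13036, chr9:90054267-90076095), an aminopeptidase of the papain family, rose from between 0.868 and 1.18 CPM to 3.17 and 2.96 CPM (log2 fold change 1.51, SE 0.23, adjusted p = 3.82e-05). It is a scarce transcript here, with a mean of 1.73 CPM, and it did not reach the FPKM filter of the limma alternative. *Ctsb*, at 720, 744 and 1048 CPM in control and 710, 690 and 1059 CPM in *Thada*-activated cells, was higher in both replicate 3 libraries with a fold just under 1.5 (log2 fold change 0.55, adjusted p = 3.04e-07), and it passed that fold once the GC and length trend was removed (0.66). Its span overlaps that of *Fdft1*. *Ctsf* had the same log2 fold change of 0.55 (adjusted p = 1.43e-06).

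*Ctsa* (gene 19025, chr2:164832872-164841032), the serine carboxypeptidase that protects β-galactosidase and neuraminidase in the lysosome, had 366, 354 and 231 CPM in control and 358, 372 and 226 CPM in *Thada*-activated cells. Both replicate 3 libraries were low, and it fell by 0.67 (SE 0.06, adjusted p = 1.1e-07). *Neurl2* and *Pltp* overlap its span. Its partners *Glb1* and *Neu1*, which encode that galactosidase and neuraminidase, had log2 fold changes of 0.44 (adjusted p = 4.33e-06) and −0.07 (adjusted p = 0.261). *Ctsz* was lower (−0.36, adjusted p = 4.12e-05), as was *Ctsl* (−0.14, adjusted p = 0.0287), which did not pass with the GC and length trend removed (−0.04, adjusted p = 0.465). *Ctsd*, the main aspartic protease, had 616, 661 and 691 CPM in control and 636, 628 and 633 CPM in *Thada*-activated cells, and did not pass (0.05, adjusted p = 0.435).

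Among the other soluble proteins, *Gusb* (gene 110006, chr5:129989011-130003049), the β-glucuronidase, had 127, 134 and 62.6 CPM in control and 132, 127 and 73.8 CPM in *Thada*-activated cells. It fell by 0.94 in replicate 3 (SE 0.06, adjusted p = 1.59e-08). *Lipa* (gene 16889, chr19:34492316-34527474), the acid lipase that splits cholesteryl esters and triglycerides, had 41.4, 45.6 and 72.5 CPM and then 46.0, 43.3 and 78.1 CPM. It was high in both replicate 3 libraries and rose by 0.76 (SE 0.06, adjusted p = 9.44e-08). *Npc2*, which hands cholesterol to NPC1, and *Psap* were higher at smaller folds (0.40 and 0.36), and the acid α-glucosidase gene *Gaa*, which breaks down glycogen, was lower (−0.56, adjusted p = 1.76e-06). *Hexa*, *Asah1* and *Neu1* did not pass.

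Membrane proteins gave no call in replicate 3. *Lamp1* had 705, 738 and 574 CPM in control and 703, 715 and 509 CPM in *Thada*-activated cells, the replicate 3 libraries being the lowest (log2 fold change −0.41, adjusted p = 2.2e-05). *Lamp2* had 418, 446 and 399 CPM and 424, 428 and 406 CPM (−0.10, adjusted p = 0.106). *Mcoln1*, a calcium channel of the lysosome, had a log2 fold change of −0.50 (adjusted p = 1.09e-05) and *Cd63* of −0.53 (adjusted p = 1.35e-05). *Scarb2*, the receptor that carries β-glucocerebrosidase to lysosomes, was higher (0.38, adjusted p = 2.52e-05). Neither *Tfeb* (−0.16, adjusted p = 0.225) nor *Tfe3* (0.11, adjusted p = 0.157) passed. With the GC and length trend removed *Tfeb* was lower (−0.28, adjusted p = 0.0267).

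The replicate 3 difference was also read within each condition. A term for its difference between conditions called 0 of the 44 in edgeR, against 1.81% of all tested genes, and 8 members had an unadjusted p under 0.05 (18.2%), against 21.1% of genes. Each condition has 1 replicate 3 library, so this term sets 1 library against 1 and takes its spread from replicates 1 and 2 alone. Its p-values do not cover how replicate 3 libraries vary. DESeq2 also called 0. By the adjusted p alone the term picked out *Cd63*, 1 of 44 (2.27%), against 6.96% of genes. *Cd63* had 781, 837 and 497 CPM in control and 769, 738 and 595 CPM in *Thada*-activated replicates 1 to 3. It was lowest in replicate 3 of both conditions, with log2 fold changes of −0.69 in control and −0.37 in *Thada*-activated cells (difference 0.32, adjusted p = 0.00963).

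**Figure D3:**
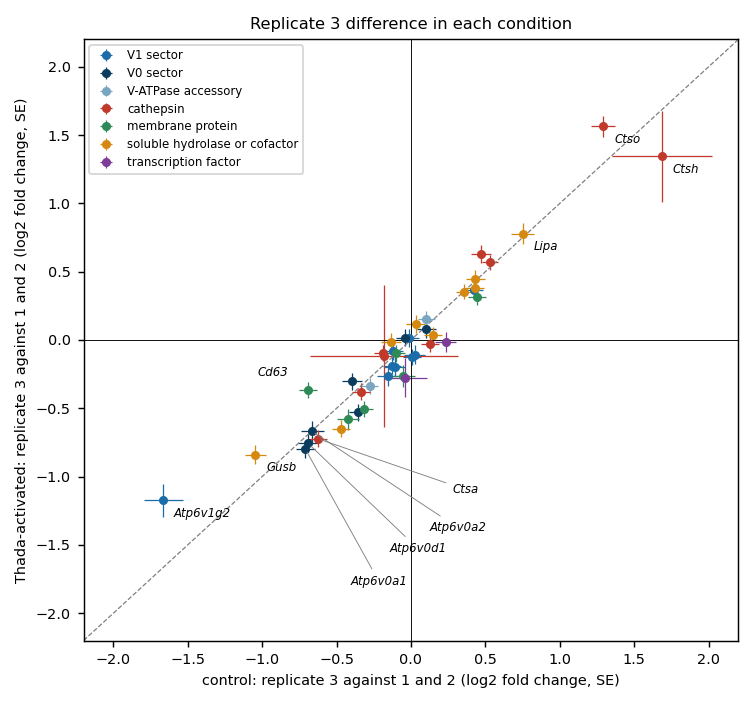
Log2 fold change of replicate 3 against replicates 1 and 2 in control libraries (horizontal axis) and in *Thada*-activated libraries (vertical axis) for the 44 tested members, with SE as lines and the role as colour; the dashed line marks equal values. The 9 called members and *Cd63* are named. Each has the same sign in both conditions, which for the 9 was largely set by their selection over both conditions together.

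Other lysosomal genes were read from 6 further lists, 89 of whose 91 genes were in the table and tested. Activation of *Thada* called 0 of the 89, with or without the block. Replicate 3 had 10 of them called higher and 16 lower (29.2% in all, against 31.1% of all tested genes), and 64 differed at the adjusted p (71.9%, against 68.6%). Of 29 other soluble hydrolases and activators, 5 rose and 6 fell. *Galns*, which removes sulfate from keratan sulfate, fell by 1.24 and the acid phosphatase gene *Acp2* by 1.14, while the GM2 activator gene *Gm2a* rose by 0.74 and the β-mannosidase gene *Manba* by 0.87. Of 19 other membrane proteins, 2 rose and 6 fell. The latter include *Cln3*, the gene of juvenile Batten disease, which fell by 1.34, the cystine carrier gene *Ctns* (1.01), the channel gene *Tpcn1* (0.71) and *Clcn7*, which exchanges chloride for protons (0.64). Of 13 genes for mannose 6-phosphate tagging and sorting 1 was called, *Ap1m1* of the AP-1 adaptor (log2 fold change −0.90). Of 15 genes of Ragulator, the Rag GTPases and folliculin, 1 rose and 2 fell: *Rragb* (0.61), *Lamtor1* (−0.63) and *Mtor* (−0.70), which signal amino acid supply at the lysosome. Of 12 factors that assemble or regulate the V-ATPase, *Tmem9* (0.85) and *Tldc1* (0.99) rose and *Wdr7* (−0.63) fell. With the GC and length trend removed, 6 were called higher and 13 lower (21.3% in all, against 28.7% of all tested genes in that fit). *Clcn7*, *Rragb*, *Mtor* and *Wdr7* then had folds under 1.5, as had 3 further risen genes, among them both risen membrane proteins. *Rragb* also did so without control replicate 1, control replicate 3 or *Thada*-activated replicate 2 (0.55, 0.51 and 0.57), and *Clcn7* without *Thada*-activated replicate 3 (−0.51). *Mitf*, of the same family as *Tfeb* and *Tfe3*, had a log2 fold change of 0.30 and a fold under 1.5.

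Marker lists moved with replicate 3 as well, as did 68.6% of all tested genes at the adjusted p (34.3% higher, 34.4% lower). The 10 β-cell markers summed to 104610, 94264 and 127310 CPM in control replicates 1 to 3 and to 100500, 98461 and 114210 CPM in *Thada*-activated ones, *Ins2* being the most abundant. Of the 9 tested, 2 were higher in replicate 3 at the adjusted p, *Ins1* (log2 fold change 0.82, adjusted p = 2.23e-07) and *Ins2* (0.57), and 7 were lower: *Pdx1* (−1.03), *Nkx2-2* (−0.91), *Pcsk1* (−0.81), *Mafa* (−0.61), *Iapp* (−0.58), *Neurod1* (−0.41) and *Nkx6-1* (−0.33). The α- and δ-cell list, led by *Sst*, summed to 180, 152 and 86.3 CPM and to 165, 155 and 82.4 CPM. Of its 3 tested genes, *Sst* (log2 fold change −1.14) and *Gcg* (−0.34) were lower in replicate 3 at the adjusted p, and *Irx2* was higher (0.49). The duct list, led by *Krt7*, summed to 149, 151 and 72.0 CPM and to 184, 185 and 99.2 CPM. Fibroblast markers summed to at most 5.75 CPM, endothelial markers to at most 1.24 CPM and acinar markers to at most 0.113 CPM in a library. Of the 2 fibroblast markers tested, *Col1a1* was higher in replicate 3 (log2 fold change 1.28) and *Col1a2* did not pass (−0.21). The part of these shifts in the values of the lysosomal genes was not tested. In bulk RNA fewer cells of a type and less RNA per cell cannot be told apart. Across all tested genes with a value, the replicate 3 log2 fold change had a Spearman correlation of 0.01 with GC content and of −0.22 with transcript length. Across the 44 members these were −0.26 and 0.06. These are descriptions across genes of the same libraries.

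TFEB and TFE3 bind lysosomal promoters at elements built around the E-box CACGTG, which reads the same on both strands. RefSeq promoter sequences (GRCm38.p6, 250 bases before to 50 after a start) were matched for 42 of the 53 members. CACGTG was found in 12 of the 42 (28.6%), against 8.09% of 27025 genes, and the longer TCACGTGA, which contains it, in 6 (14.3%), against 1.12%. Among tested genes with a sequence, which are expressed here, CACGTG was in 12 of 35 members (34.3%) and in 11.8% of all 10020. Of the 12, 8 were lower and 2 higher in replicate 3 at the adjusted p and 2 did not pass. Of the 23 tested members with a sequence and no match, 8 were lower and 6 higher. This difference in the share lower largely vanished once the GC and length trend was removed, as given after the sequences. Over all tested genes with a match, 38.8% were lower and 33.2% higher, and without a match 33.7% and 34.6%. These shares were not tested, and a match is no evidence of binding. The stretches below, of 6 of those 8, are shown because they belong to genes lower in replicate 3, with the E-box in capitals, each read 5′ to 3′ on the strand of its gene.
Lamp1, chr8:13159092-13159159, plus strand: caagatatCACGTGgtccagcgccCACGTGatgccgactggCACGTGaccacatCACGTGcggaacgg
Mcoln1, chr8:3500440-3500487, plus strand: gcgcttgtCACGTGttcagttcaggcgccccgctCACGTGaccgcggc
Atp6v0b, chr4:117887334-117887373, minus strand: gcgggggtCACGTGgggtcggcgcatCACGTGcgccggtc
Atp6v1a, chr16:44139377-44139398, minus strand: ttttaaatCACGTGataggctt
Gaa, chr11:119267815-119267836, plus strand: tgtgcgatCACGTGtttgactc
Atp6v0d1, chr8:105566054-105566075, minus strand: actgcggtCACGTGagacgcgg
*Lamp1* carries 4 copies within 61 bases of its start and the other 5 carry 1 or 2. The copy of *Atp6v0d1* begins 3 bases before the start. *Ctsa* (2 copies) and *Ctsl* also hold the E-box and were lower. With the GC and length trend removed *Ctsl* did not pass, which leaves 7 of the 12 lower. In that fit *Atp6v1e1*, *Atp6v1f*, *Lamp2*, *Neu1* and *Tfeb*, which have no match, became lower at the adjusted p. The share lower was then about the same among tested members with and without a match. *Glb1* and *Ctsf* also hold the E-box and were higher in replicate 3, and *Ctsd* and *Atp6v0e* hold it and did not pass. *Atp6v0a1* and *Gusb*, which fell, have no match in these windows.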

How the data were processed

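Total RNA of 6 MIN6 libraries was sequenced on the BGISEQ-500 platform. Per the labels, the authors used Bowtie2, RSEM and DESeq2 with GRCm38; versions are not given in the sources used here. The authors deposited estimated counts per gene, without normalization, and FPKM values; fold changes and p-values of their own comparison, also in their table, were not used. Conditions and replicate numbers come from the titles. From 91.1% to 91.9% of counts were whole (within 1e-09), and all were rounded. A gene at or under 3 counts, 0.169 to 0.175 CPM, was at the floor, which covers counting error only.

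Genes were filtered (filterByExpr), normalized (TMM) and tested in edgeR 4.0.16 (R 4.3.3; quasi-likelihood, robust) with condition alone, with condition and replicate number, with condition and replicate 3 (yes or no), or with their interaction. Fold changes are log2, and p-values are adjusted over all 12516 tested genes. limma 3.58.1 and DESeq2 1.42.0 served as alternatives, and scripts were tested on simulated data. Deviations of same-numbered libraries from their condition means correlated (r = 0.667, 0.671 and 0.869), each over 0.1, so the numbers were taken as pairs, but for numbers 1 and 2 the crossed pairs correlated better (0.705 and 0.726), and only replicate 3 stands apart. No 2 libraries of a condition agreed within sampling noise (chi-square per degree of freedom at least 1.84), which does not exclude technical replicates.

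Named genes were all members by role, the 3 members with the lowest blocked p, called members with the largest change in each role, a fixed set (a subunits, B subunits, accessory genes, LAMPs, the main cathepsins, *Tfeb* and *Tfe3*), and up to 4 called genes of each further list. Members and lists were chosen with earlier results of these data known. Gene spans are from RefSeq, GC content and length from GENCODE M21.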

Additional observations from a re-analysis of the deposited data

Results flagged for a closer look

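Of 173 genes described, 152 were tested for a replicate 3 difference that was unlike in the 2 conditions, and 9 (5.92%) had an adjusted p under 0.05 in edgeR's interaction term, against 6.96% of all tested genes. The term sets the single replicate 3 library of 1 condition against that of the other and takes its spread from replicates 1 and 2 alone, so its p-values do not cover how replicate 3 libraries vary. A single member was among them, *Cd63*, whose difference was 0.32 (log2, *Thada*-activated minus control; adjusted p = 0.00963). Of the other lysosomal lists, *Scpep1*, a serine carboxypeptidase, had −0.32 (adjusted p = 0.0145), with replicate 3 log2 fold changes of 0.06 in control and −0.27 in *Thada*-activated cells. The channel gene *Tpcn2* had 1.07 (adjusted p = 0.0332), with −1.85 in control and −0.78 in *Thada*-activated cells, at 2.04 and 4.47 CPM in the replicate 3 libraries. Among β-cell markers the values were 0.42 for *Iapp* (adjusted p = 0.000322), −0.40 for *Ins2* (0.0019), 0.38 for *Pcsk1* (0.00238), −0.46 for *Mafa* (0.0046) and −0.35 for *Nkx2-2* (0.0208). *Thada* itself had 0.52 (adjusted p = 0.00935). Groups of 3 libraries are too small for a check of single outlying libraries.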

How the results depend on the processing

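For *Thada*-activated against control cells, 0 members were called under every alternative run, and the median log2 fold change of the members ranged from −0.06 (without control replicate 3) to 0.00 (without *Thada*-activated replicate 3). The replicate block changed no call of a member (0 called, median −0.03), nor did the block on replicates 1 and 2 alone (0 called, median −0.02), where 70 genes of the table were called, nor the block with a trend in GC content and length removed (0 called, median −0.05). The 2 GC corrections and the use of replicates 1 and 2 with no block were chosen after seeing the data.

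For replicate 3, 9 members were called by DESeq2, by its size factors, with the 20 most counted genes left out of library sizes and with no condition term, and 11 without a filter on low counts. With 1 library of replicate 1 or 2 left out the count was 9 or 10, and all 9 members were called each time. Without 1 of the replicate 3 libraries the 9 kept folds over 1.5, but a single replicate 3 library then remained. In control and in *Thada*-activated libraries alone the same 9 had folds over 1.5, each from 1 replicate 3 library. limma on FPKM gave 8, without *Ctsh*. With no fold threshold 29 members passed (65.9%, against 68.6% of all tested genes). Removing the GC and length trend gave 11 (25%, against 28.7% of all tested genes in that fit). These held 8 of the 9, without *Atp6v0a2* (−0.51) and with *Atp6v0c*, *Cd63* and *Ctsb* added. By the adjusted p alone, that removal lost *Atp6ap2* and *Ctsl* and added *Atp6v1c1*, *Atp6v1e1*, *Atp6v1f*, *Lamp2*, *Neu1* and *Tfeb*, all lower with folds under 1.5. Control libraries alone lost *Atp6v1a*, *Atp6v1d* and *Atp6ap2* and added *Ctsd*, *Hexa* and *Tfe3*, and *Thada*-activated ones lost *Ctsl* and added *Npc1*; each of these sets 1 replicate 3 library against 2, with no measure of how replicate 3 libraries vary. The median log2 fold change of −0.10 became −0.12 and −0.13 by limma with 1 and 0.1 added to FPKM, −0.077 in control libraries alone and −0.14 with the trend removed, and it ran from −0.12 to −0.076 with 1 library left out, a shift over the 0.0169 SD between replicates. The cause of these shifts was not tested.

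The term for a difference of replicate 3 between conditions called 0 members under most alternatives, 1 with no fold threshold (*Cd63*), and from 0 to 1 with 1 library left out (without control replicate 2 it called *Atp6v1g2*, difference 0.59, adjusted p = 0.0165). It cannot be estimated without a replicate 3 library. Where a library is left out, a lone library is taken to vary like the others. In the main fits 9 members, none over 1.16 CPM in any library, did not pass the filter on low counts and were not tested. Of these, *Atp6v1c2* was among the genes tested when control replicate 3 was left out, and it was called there. That call rests on *Thada*-activated replicate 3, the only replicate 3 library left, where the gene was highest (1.16 CPM).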
